A study of Homo sapiens with 16 samples.

Results

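The genes described here are 9 genes of the major histocompatibility complex (MHC) class I presentation pathway, followed in 2 melanoma cell lines, A101D and MeWo. They are the heavy chains HLA-B, HLA-C and HLA-E, the light chain B2M, the peptide transporter subunits TAP1 and TAP2, the loading factor TAPBP (tapasin), the immunoproteasome subunit PSMB9 and the transcription activator NLRC5. They were chosen by name, with earlier results of these data known, and all 9 were found among the 60676 gene identifiers of both count tables. Total RNA was sequenced in 8 libraries labelled A101D, a human melanoma line described as dependent on methionine, and 8 labelled MeWo, a human melanoma line described as independent of it. The growth protocol describes a control medium holding methionine at 200 µM and another in which homocysteine at 200 µM replaced it, and no label says which culture had which. The libraries are numbered 1 to 8 in each line. Values are given for each line and, within it, for replicates 1-4 and 5-8, a division for which the labels give no meaning. No label says whether the replicates of a line are separate cultures, so p-values measure only the spread between these libraries, which may be technical. Each label is 1 line, so a difference between the lines cannot be told apart from any other difference between A101D and MeWo.

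In nucleated cells, proteasomes cut proteins into peptides, the TAP1-TAP2 transporter carries them into the endoplasmic reticulum, and tapasin holds empty class I molecules at the transporter until a peptide has bound. A heavy chain can reach the cell surface with its peptide only when paired with beta-2-microglobulin, the product of B2M. Interferon gamma acts through IRF1 among others and raises NLRC5, which is recruited to class I promoters by the RFX, NF-Y and CREB/ATF factors bound there. It also replaces catalytic subunits of the standard proteasome with the immunoproteasome subunits PSMB8, PSMB9 and PSMB10. Melanomas are known for losing parts of this pathway, which lowers their display to T cells.

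The upstream sequences of 5 members are shown because class I genes are known to be switched on through short elements close to their starts. They read in the direction of the gene, come from RefSeq on GRCh38.p14 and begin 250 bases before the RefSeq start of the gene. Each was ended before the first base that GENCODE v29 (also GRCh38) places in an exon of the gene. Capitals mark matches, on either strand, to an interferon regulatory factor core (AANNGAAA), a CCAAT box (CCAAT), a cyclic AMP response element core (TGACG), the gamma-activated site (TTCNNNGAA) and the kappa B consensus. Overlapping matches run together in the capitals. HLA-B lies at chr6:31357189-31357429 on the minus strand, HLA-C at chr6:31272131-31272342 on the minus strand, B2M at chr15:44711267-44711486 on the plus strand, TAP2 at chr6:32838781-32838989 on the minus strand and PSMB9 at chr6:32853942-32854147 on the plus strand.
HLA-B: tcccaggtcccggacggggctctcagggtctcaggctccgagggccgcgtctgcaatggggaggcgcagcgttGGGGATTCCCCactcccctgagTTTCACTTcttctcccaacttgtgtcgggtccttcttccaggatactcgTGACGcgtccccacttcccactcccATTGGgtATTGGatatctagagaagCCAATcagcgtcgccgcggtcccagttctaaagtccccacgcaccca
HLA-C: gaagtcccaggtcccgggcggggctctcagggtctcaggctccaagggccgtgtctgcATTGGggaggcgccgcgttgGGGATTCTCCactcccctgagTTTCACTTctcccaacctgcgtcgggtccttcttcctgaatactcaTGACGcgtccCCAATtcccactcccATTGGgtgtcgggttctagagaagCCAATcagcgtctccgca
B2M: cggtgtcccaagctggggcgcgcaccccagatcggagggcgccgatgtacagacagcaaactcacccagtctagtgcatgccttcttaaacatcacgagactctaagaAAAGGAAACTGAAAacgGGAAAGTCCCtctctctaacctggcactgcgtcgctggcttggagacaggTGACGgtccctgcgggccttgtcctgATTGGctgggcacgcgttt
TAP2: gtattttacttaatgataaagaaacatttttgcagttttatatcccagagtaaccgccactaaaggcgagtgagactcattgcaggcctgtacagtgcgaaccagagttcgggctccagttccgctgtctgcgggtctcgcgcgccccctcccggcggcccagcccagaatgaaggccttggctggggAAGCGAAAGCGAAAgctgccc
PSMB9: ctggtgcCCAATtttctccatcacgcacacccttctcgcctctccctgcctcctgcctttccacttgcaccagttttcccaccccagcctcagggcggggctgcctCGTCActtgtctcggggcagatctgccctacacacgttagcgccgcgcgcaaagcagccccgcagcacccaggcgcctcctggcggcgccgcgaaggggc

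RefSeq windows of 250 bases were matched for 7 of the 9 members. The interferon regulatory factor core was found in 6 of these 7, all but PSMB9, and in 20.3% of the 34788 distinct windows of all genes. The kappa B consensus was found in 5 members and 9.95% of all windows, the CCAAT box in 5 members and 32% of all windows, and the TGACG core in 5 members and 21.2% of all windows. The gamma-activated site was found in 1 member, TAP1, in the window of its other annotated start, and in 6.57% of all windows. These matches describe letters in a reference genome and not factor binding. The full windows were matched, including bases cut from the sequences shown. Windows of TAP1 and TAPBP began inside a GENCODE v29 exon of the gene, so neither gene is shown. The TGACG core of TAP2 lies in the 41 bases cut. The HLA-B and HLA-C windows were 89% identical, with 226 matching bases in 254 aligned columns. In each of them a kappa B match is followed by the interferon regulatory factor core, the TGACG core and then CCAAT boxes, and HLA-C has 1 further CCAAT box ahead of them. TAP1 and PSMB9 are divergent neighbours on chromosome 6, with RefSeq starts 488 bases apart. The 2 interferon regulatory factor core matches of TAP1 lie between these starts, outside the window of 250 bases matched for PSMB9. The windows of TAP1 and PSMB9 overlap at their far ends, and their CCAAT matches are the same bases, counted for each gene.

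Library totals ran from 28910881 to 38961862 counts in A101D and from 31217443 to 38722489 in MeWo. The 9 genes took 0.156% to 0.180% of the counts of an A101D library and 0.0842% to 0.0936% of a MeWo library. Of 8 melanocyte lineage markers, 7 reached 1 CPM (counts scaled to library size) in A101D and 8 in MeWo, with summed levels of 2529 to 3442 CPM and 10240 to 11440 CPM. Not all went with the sum: S100B and DCT were lower in MeWo (log2 fold change, MeWo minus A101D, -2.21 and -1.56) and the other lineage markers higher. Of 8 leukocyte markers, 1 reached 1 CPM in each line, LYZ in A101D and CD68 in MeWo. The leukocyte markers summed to between 3.11 and 4.28 CPM in an A101D library and between 2.99 and 4.07 CPM in a MeWo library, and MS4A1 was at 0 in every MeWo library. MeWo replicate 2 had the most genes detected in its line, 34471. In bulk RNA, fewer cells that express a gene and less RNA per cell cannot be told apart.

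The first comparison was between the lines. The class I machinery was lower in MeWo for most of the 9 genes, with the largest differences in PSMB9, HLA-C and HLA-B and the smallest in B2M and NLRC5. With limma on voom-weighted counts, 7 of 9 members were lower in MeWo at an adjusted p under 0.05, 1 was higher (NLRC5) and 1 did not pass (B2M). Of all 19247 genes tested 79% passed this threshold, 40.5% as lower and 38.5% as higher. The median log2 fold change, MeWo minus A101D, was -1.26 over the 9 members, -0.22 over the 45 tested genes of the wider class I list that includes them, and -0.02 over all genes. For 7 members the lines did not overlap, every MeWo library being below every A101D library, where 57.7% of all genes did not overlap and 31.1% had all MeWo libraries below. A fall of more than 2-fold was found for HLA-B, HLA-C, TAP1, TAP2 and PSMB9, and for 21.2% of all genes.

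**Figure D1:**
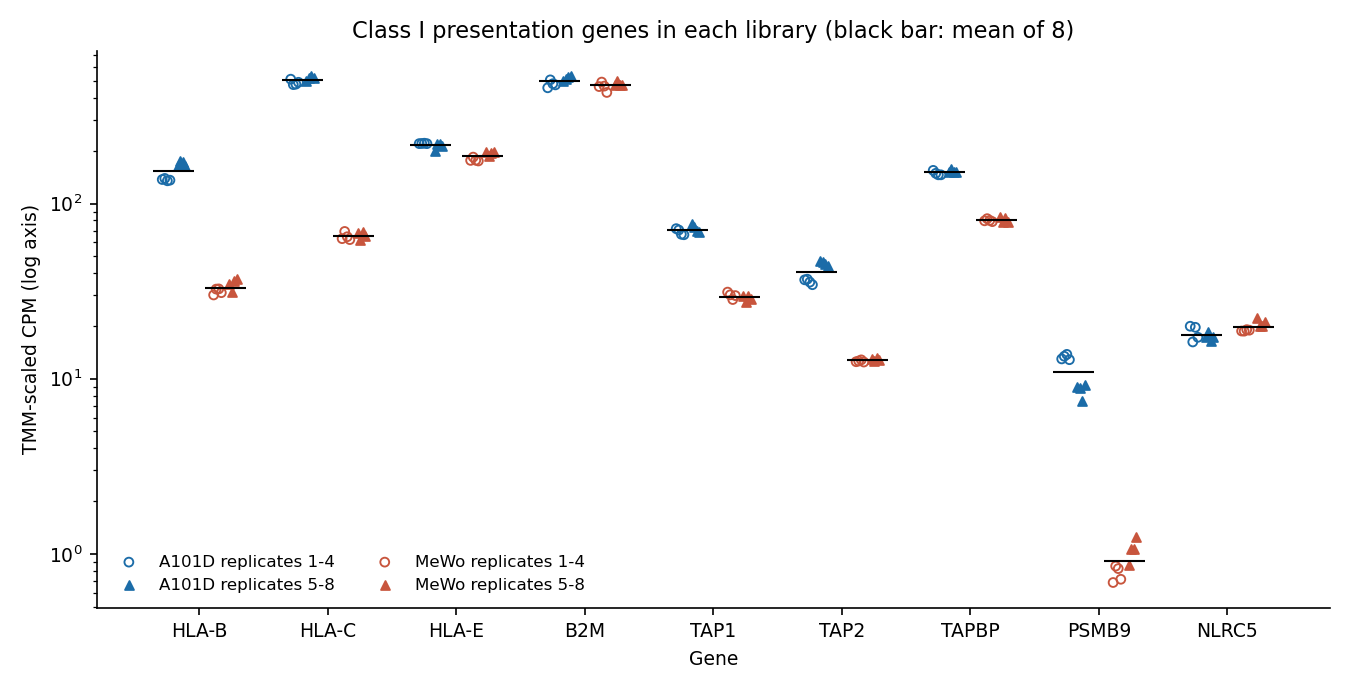
TMM-scaled CPM on a log axis for each of the 9 genes, with 1 point per library: circles for replicates 1-4, triangles for replicates 5-8, blue for A101D and red for MeWo, black bars for the mean of 8. The red points lie below all blue points for HLA-B, HLA-C, HLA-E, TAP1, TAP2, TAPBP and PSMB9, and the colours overlap for B2M and NLRC5.

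Among the heavy chains, HLA-C changed most. HLA-C (ENSG00000204525, chromosome 6, 31268749 to 31272130, minus strand), a classical heavy chain that presents peptides and is read by killer-cell receptors, ran from 477.1 CPM to 533.9 CPM in A101D, with a median of 506.4 CPM. In MeWo it ran from 61.7 to 69.3 CPM, with a median of 64.9 CPM. The highest MeWo library thus had far less HLA-C than the lowest A101D library. The difference was 7.74-fold (log2 fold change -2.95 ± 0.04 SE, limma adjusted p 3.29e-20), with means of 504.9 ± 20.8 CPM and 65.2 ± 2.87 CPM (SD, n = 8 per line).

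HLA-B (ENSG00000234745, chromosome 6, 31269491 to 31357188, minus strand), the most polymorphic of the classical heavy chains, ran from 134.8 to 175.8 CPM in A101D with a median of 151.2 CPM. In MeWo the range was 30.1 to 36.9 CPM and the median 32.5 CPM. No library of one line reached the other. The fall was 4.59-fold (log2 fold change -2.20 ± 0.07, limma adjusted p 8.60e-15). The annotated span of HLA-B overlaps most but not all of that of HLA-C, and 1.15% of its exon bases are shared with HLA-C exons.

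HLA-E (ENSG00000204592, chromosome 6, 30489467 to 30494205, plus strand), a nonclassical heavy chain that presents signal peptides of other class I chains to natural killer cells, differed little. It ran from 200.5 to 220.9 CPM in A101D (median 219.2 CPM) and from 174.9 to 196.5 CPM in MeWo (median 185.5 CPM). The ranges were close but did not overlap, and HLA-E was 1.17-fold lower in MeWo (log2 fold change -0.22 ± 0.04, limma adjusted p 2.27e-05).

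HLA-F, another nonclassical chain of the wider list, did not pass between the lines (log2 fold change 0.13, limma adjusted p 0.0612), and HLA-G had too few counts to be tested there.

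The heavy chain counts rest on reads compared with reference alleles. Class I genes are highly variable and alike, and the sources used here give neither the alleles of these lines nor how multi-mapping reads and strand were handled. Reads from an allele unlike the reference could be lost or be assigned to a relative. Of the 75-base words of HLA-B transcripts in the reference, 14.2% also occur in another gene, almost all in an overlapping locus on the opposite strand (ENSG00000271581). The figure was 1.3% for HLA-C and 1.67% for HLA-E. ENSG00000271581 itself reached at most 0.0878 CPM in any library. The part of allele differences in the heavy chain results was not tested.

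The light chain gene did not follow HLA-B and HLA-C. B2M (ENSG00000166710, chromosome 15, 44711487 to 44718877, plus strand) ran from 457.7 to 533.9 CPM in A101D, with a median of 505.3 CPM, and from 430.5 to 498.1 CPM in MeWo, with a median of 475.4 CPM. The libraries of the lines overlapped, and the log2 fold change of -0.08 ± 0.04 did not pass the threshold (limma adjusted p 0.0677). With the division into replicates 1-4 and 5-8 as a further factor in the model, the same difference passed (adjusted p 0.0252).

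The ratio of B2M to the sum of HLA-B, HLA-C and HLA-E, in counts per kb of annotated exon within each library, restates these values without library scaling. It was 0.254 ± 0.0110 in A101D (range 0.233 to 0.270) and 0.784 ± 0.0361 in MeWo (range 0.748 to 0.838), a log2 difference of 1.63. It is given as a description, since the levels of the 4 genes fix its direction and the separation of the lines.

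Both transporter subunits were lower in MeWo. TAP1 (ENSG00000168394, chromosome 6, 32845209 to 32853978, minus strand), which forms one side of the peptide channel, ran from 66.3 to 76.8 CPM in A101D (median 70.2 CPM) and from 27.4 to 31.2 CPM in MeWo (median 29.8 CPM). TAP2 (ENSG00000204267, chromosome 6, 32821833 to 32838780, minus strand), its partner, ran from 34.4 to 47.3 CPM in A101D (median 40.6 CPM) and from 12.5 to 13.2 CPM in MeWo (median 12.7 CPM). Neither gene had overlapping libraries. TAP1 fell 2.40-fold (log2 fold change -1.26 ± 0.04, limma adjusted p 6.29e-15) and TAP2 3.18-fold (-1.67 ± 0.08, adjusted p 1.53e-12). In TAP2, 32.3% of exon bases are shared with a readthrough locus on the same strand (ENSG00000250264), which reached at most 0.117 CPM, and reads there may have been left uncounted. In TAP1, 9.49% of exon bases lie opposite PSMB8-AS1, an antisense transcript that lay between 0.345 and 0.810 CPM in the A101D libraries and between 0.222 and 0.567 CPM in the MeWo ones.

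TAPBP (ENSG00000231925, chromosome 6, 33299694 to 33314387, minus strand), which encodes tapasin, ran from 145.8 to 157.7 CPM in A101D (median 151.4 CPM) and from 78.5 to 84.2 CPM in MeWo (median 79.9 CPM). It was 1.87-fold lower in MeWo, with separate libraries (log2 fold change -0.91 ± 0.03, limma adjusted p 8.50e-15). Of the 5 loading and chaperone genes, TAPBP included, 3 were lower and 2 higher. TAPBPL, a tapasin relative that edits peptides outside the loading complex, fell by 1.61 on the log2 scale, and CALR (calreticulin), a chaperone of the complex, fell by 0.39. CANX (calnexin), which folds new heavy chains, rose by 0.82, and PDIA3, the thiol oxidoreductase bound to tapasin, rose by 0.17 with overlapping libraries.

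PSMB9 (ENSG00000240065, chromosome 6, 32844136 to 32859585, plus strand), the inducible subunit that takes the place of PSMB6, had the largest fold difference of the 9 genes. Its counts ran from 256 to 498 per library in A101D and from 24 to 49 in MeWo. These were 7.495 to 13.8 CPM in A101D (median 11.1 CPM) and 0.687 to 1.26 CPM in MeWo (median 0.860 CPM). Every MeWo library was far below every A101D library, and PSMB9 was 11.6-fold lower (log2 fold change -3.54 ± 0.20, limma adjusted p 2.42e-11). PSMB9 also had the largest SE of the 9 genes. Its annotated span covers that of TAP1. Of its exon bases, 5.66% are shared with PSMB8-AS1 on the same strand and 4.52% lie opposite PSMB8, which had a mean of 17.5 CPM in MeWo. The part of such reads in the PSMB9 counts was not tested.

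The other immunoproteasome genes moved less and not all in one direction. Of 5 genes of this group, PSMB9 included, 3 were lower, 1 was higher and 1 did not pass. PSMB8 fell by 1.06 and PSMB10 by 0.40 on the log2 scale, and the proteasome activator subunit PSME1 rose by 0.52. PSME2, its partner, did not pass (log2 fold change -0.12, limma adjusted p 0.286). All 3 constitutive counterparts were higher in MeWo: PSMB6 by 1.32, PSMB7 by 0.73 and PSMB5 by 0.18 on the log2 scale, PSMB5 with overlapping libraries.

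The inducible subunits were then set against their counterparts within each library, in counts per kb of exon. PSMB9 to PSMB6 was 0.0601 ± 0.00457 in A101D and 0.00208 ± 0.000538 in MeWo, a log2 difference of -4.89. PSMB8 to PSMB5 was 0.117 ± 0.0130 and 0.0489 ± 0.00449, a log2 difference of -1.25. PSMB10 to PSMB7 was 0.0497 ± 0.0107 and 0.0224 ± 0.00315, a log2 difference of -1.13. Each of the 3 ratios was lower in 8 of 8 MeWo libraries than in any A101D library. For PSMB9 to PSMB6 and PSMB10 to PSMB7 this is a description, since the separate levels of both genes fix it. PSMB8 to PSMB5 gave p 0.000155, the lowest reachable value (two-sided exact permutation test over all 12870 splits, adjusted p 0.000466 over 12 ratio tests). There the PSMB8 levels were separate too, while those of PSMB5 overlapped. In A101D, the constitutive subunits had far more counts per kb than the inducible ones in every pair as well.

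**Figure D2:**
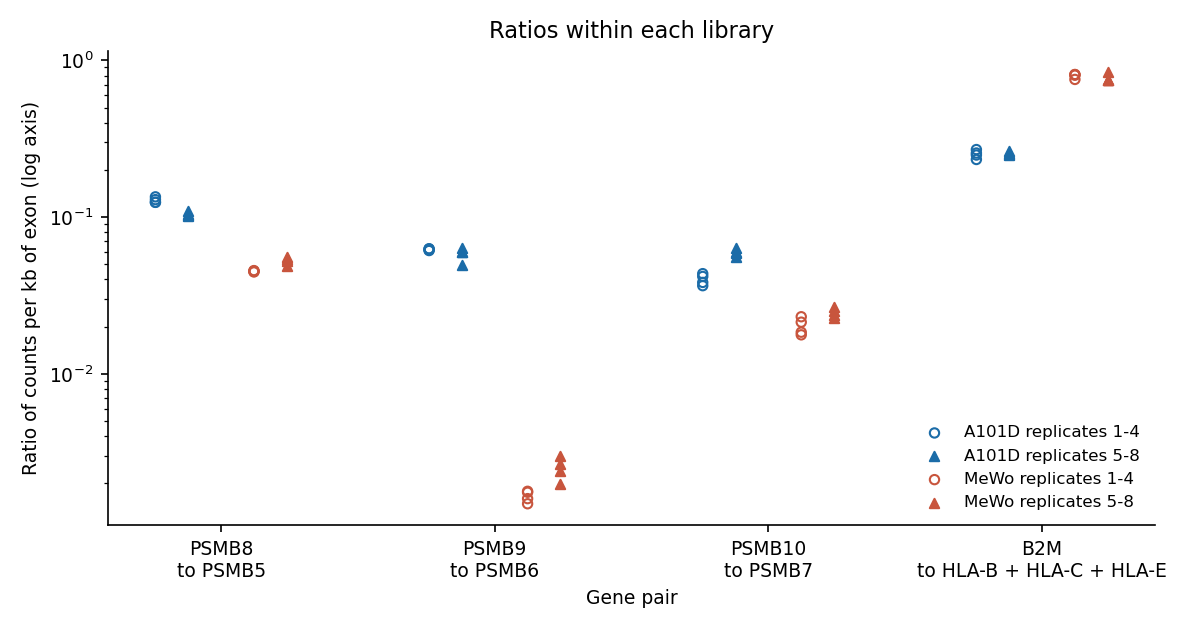
Ratios within each library, in counts per kb of annotated exon on a log axis, for the 3 inducible to constitutive proteasome pairs and for B2M to the sum of HLA-B, HLA-C and HLA-E. Circles are replicates 1-4, triangles replicates 5-8, blue A101D and red MeWo. The red points lie below the blue ones for the proteasome pairs, most for PSMB9 to PSMB6, and above them for B2M.

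NLRC5 (ENSG00000140853, chromosome 16, 56989485 to 57083531, plus strand), the class I transactivator, differed little between the lines. It ran from 16.2 to 19.9 CPM in A101D (median 17.4 CPM) and from 18.7 to 22.1 CPM in MeWo (median 19.6 CPM). The libraries overlapped, and NLRC5 was 1.12-fold higher in MeWo (log2 fold change 0.16 ± 0.05, limma adjusted p 0.0147). This call was lost at a threshold of 0.01 and without a low-count filter (adjusted p 0.0567).

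Its partners and the interferon gamma pathway were mixed. Of 13 promoter factors, NLRC5 included, 8 were higher, 4 lower and 1 (ATF1) did not pass. RFX5 and RFXANK, subunits of the RFX complex, fell by 0.43 and 0.44 on the log2 scale, and RFXAP, the remaining subunit, rose by 0.47 with overlapping libraries. NFKB1 and RELA, which bind kappa B sites, rose by 0.74 and 0.54. IRF1, an activator of class I and PSMB9 promoters, fell by 0.63, and IRF2, which competes for the same sites, rose by 0.41. Of 5 interferon gamma signalling genes 2 were higher and 3 lower: the receptor chain IFNGR1 rose by 0.89, IFNGR2 fell by 0.44, JAK1 rose by 0.28, JAK2 fell by 0.85 and SOCS1, a feedback inhibitor with under 1 CPM, fell by 1.43.

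Of the 2 peptide-trimming aminopeptidases, ERAP2 was 21-fold lower in MeWo (66.9 ± 3.50 CPM in A101D, 3.20 ± 0.551 CPM in MeWo, log2 fold change -4.39 ± 0.08, limma adjusted p 4.27e-18). ERAP1, its relative, was 1.69-fold higher (log2 fold change 0.75 ± 0.04). Of 5 class I-like molecules, MICA and MICB, stress ligands of the killer-cell receptor NKG2D, fell by 1.52 and 1.58 on the log2 scale. MR1, which presents vitamin metabolites, fell by 1.62 and HFE, an iron regulator, by 0.55, and FCGRT, the neonatal Fc receptor, rose by 0.55 with overlapping libraries. Over the 37 pathway genes that are not among the 9 members, 17 were higher, 16 lower, 3 did not pass and 1 was not tested.

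**Figure D3:**
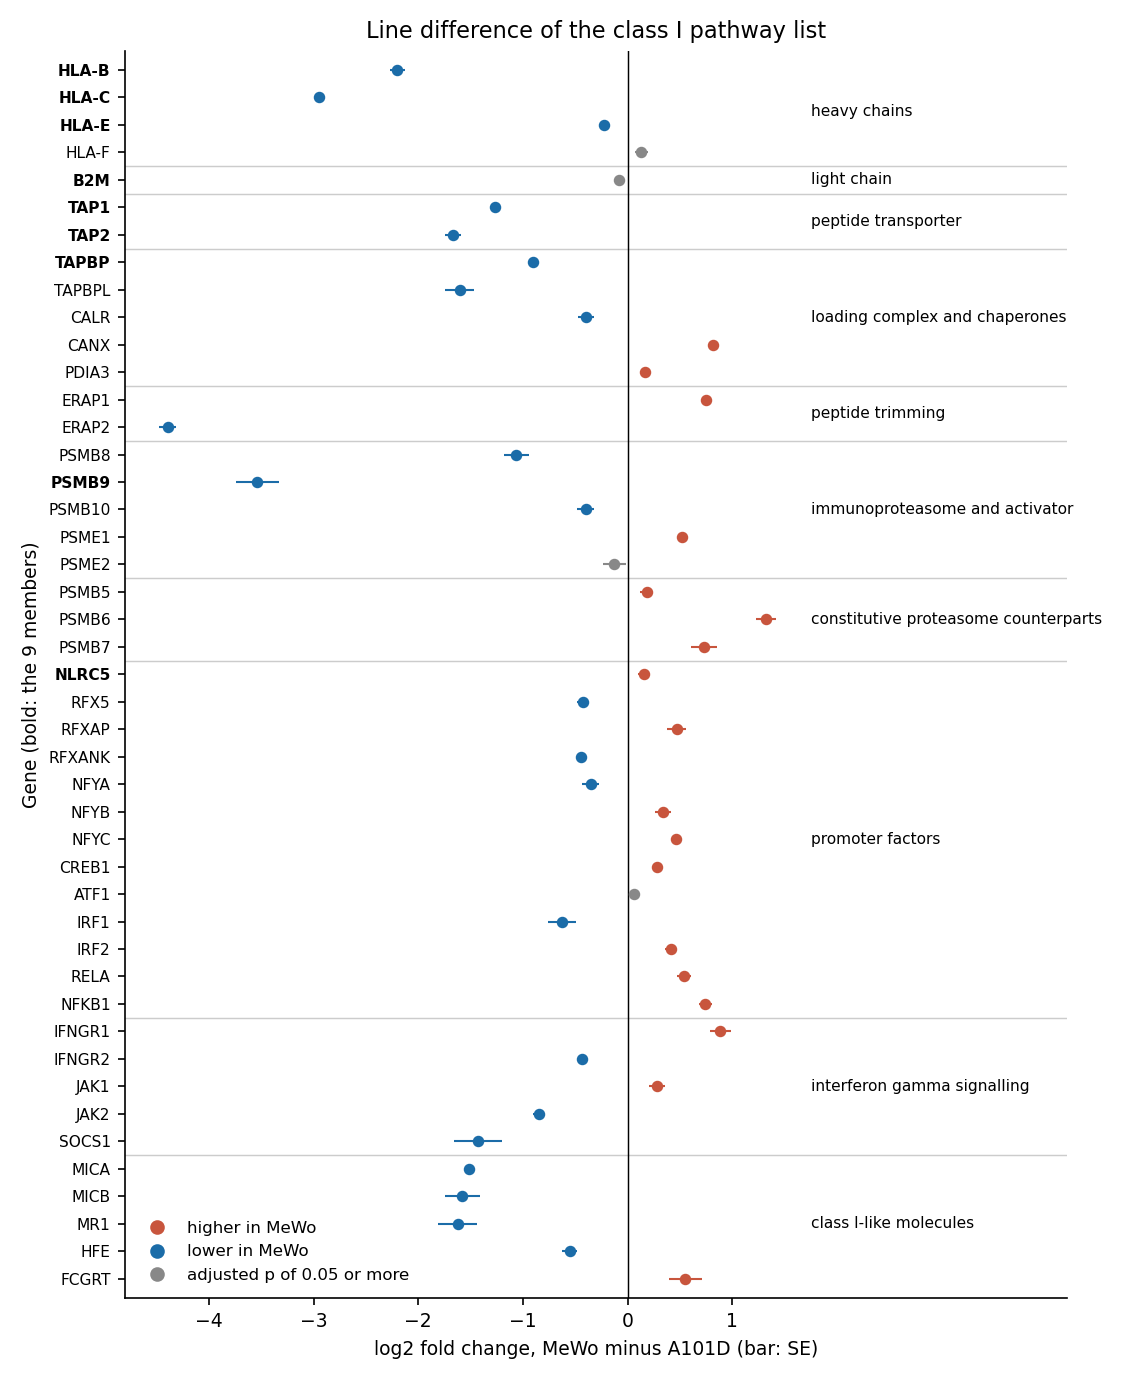
Log2 fold change, MeWo minus A101D, with its SE for the 45 tested genes of the class I list, ordered by role, with the 9 members in bold. Blue points are lower in MeWo, red points higher and grey points did not pass an adjusted p of 0.05. The members lie mostly to the left of 0, down to -3.54 for PSMB9, while the wider list has a median of -0.22.

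Levels were ordered per kb of annotated exon, which counts every annotated exon as expressed, so the order of genes depends on the annotation. In A101D the order was HLA-C (201.4 ± 8.31 CPM per kb), B2M (82.3 ± 4.32), HLA-E (72.8 ± 2.28), HLA-B (50.1 ± 5.83), TAPBP (29.9 ± 0.816), TAP1 (14.7 ± 0.734), TAP2 (6.39 ± 0.847), PSMB9 (3.57 ± 0.824) and NLRC5 (1.44 ± 0.112). In MeWo it was B2M (77.8 ± 3.38 CPM per kb), HLA-E (62.5 ± 3.12), HLA-C (26.0 ± 1.15), TAPBP (15.9 ± 0.427), HLA-B (10.9 ± 0.819), TAP1 (6.11 ± 0.253), TAP2 (1.995 ± 0.0395), NLRC5 (1.60 ± 0.101) and PSMB9 (0.298 ± 0.0632). No neighbours in either order had overlapping libraries. HLA-C moved from the top of the order in A101D to below B2M and HLA-E in MeWo, and PSMB9 from above NLRC5 to below it. In A101D, HLA-C and B2M had similar CPM (means 504.9 and 500.3). Their order there rests on annotated exon lengths of 2507 and 6079 bases.

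The genes whose pattern was most like that of the 9 were sought among 10096 genes outside the members and the pathway genes reported, by Pearson correlation with the mean centred log2 CPM of the members. Over all 16 libraries these were CD74 (r 0.9993), PARP12 (0.9991), GLIS3 (0.9990), IGFBP3 (0.9989) and HLA-DRA (0.9987). All 5 were far lower in MeWo, so the correlation mostly repeats the difference between the lines. CD74, the invariant chain of class II, had 372.1 ± 29.03 CPM in A101D and 2.45 ± 0.502 CPM in MeWo, and HLA-DRA, a class II heavy chain, had 291.1 ± 14.96 CPM and 0.808 ± 0.235 CPM. Over the 8 A101D libraries the leading genes were IFFO1 (r 0.93), AP2M1, TNIP1, ECH1 and PPM1M, and over the 8 MeWo libraries MRPL20 (r 0.983), IFI6 (r 0.98), CYB5D2, PYM1 and MIEN1. IFI6, an interferon-induced gene, had 32.4 ± 5.79 CPM in A101D and 39.6 ± 4.59 CPM in MeWo. These coefficients share libraries and depth and are given as descriptions.

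Within A101D, replicates 5-8 differed from replicates 1-4 over much of the transcriptome, and the 9 genes split. HLA-B and TAP2 rose and PSMB9 fell, each with separate libraries, while TAPBP, TAP1, HLA-E and NLRC5 did not pass. The HLA-E libraries were narrowly separate too, at 219.6 to 220.9 CPM in replicates 1-4 and 200.5 to 218.7 CPM in replicates 5-8. In all, 5 of 9 members passed, 4 higher and 1 lower, where 65.6% of the 21569 genes tested did (34.2% higher and 31.4% lower). With total counts or upper-quartile factors 7 of 9 members passed, 6 of them higher, and without A101D replicate 8 it was 6 of 9. The calls over all genes, 7370 higher and 6771 lower, became 8490 and 5770 with total counts and 8070 and 6163 with upper-quartile factors. The median log2 fold change was 0.06 over the 9 members and 0.02 over all genes.

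HLA-B was 137.1, 139.1, 134.8 and 135.9 CPM in A101D replicates 1-4, in that order, and 164.2, 175.8, 172.8 and 163.3 CPM in replicates 5-8. All of replicates 5-8 were above all of replicates 1-4 (log2 fold change 0.31 ± 0.04, limma adjusted p 9.01e-10). TAP2 was 36.7, 37.0, 35.6 and 34.4 CPM in replicates 1-4 and 47.3, 46.5, 45.3 and 44.1 CPM in replicates 5-8. These groups were also separate, and TAP2 rose by 0.35 ± 0.04 on the log2 scale (adjusted p 6.25e-10).

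PSMB9 was 13.0, 13.4, 13.8 and 12.8 CPM in A101D replicates 1-4 and 9.02, 8.83, 7.495 and 9.25 CPM in replicates 5-8. It fell while HLA-B and TAP2 rose (log2 fold change -0.61 ± 0.07, limma adjusted p 5.11e-10). Across the 8 A101D libraries PSMB9 correlated with HLA-B at r -0.97 and with TAP2 at -0.93, and HLA-B with TAP2 at 0.97. Each coefficient repeats the separation of the same 4 and 4 libraries.

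Smaller differences were found for HLA-C, at 490.4 ± 16.1 CPM and 519.4 ± 14.01 CPM in replicates 1-4 and 5-8 (SD, n = 4 each), and for B2M, at 481 ± 20.8 CPM and 519.5 ± 13.5 CPM. HLA-C rose by 0.08 ± 0.03 (limma adjusted p 0.0164) and B2M by 0.11 ± 0.03 (adjusted p 0.00289), both with overlapping libraries. HLA-C was not called with limma-trend in place of voom weights (adjusted p 0.0577), nor without A101D replicate 2, 3 or 7 (adjusted p 0.0743, 0.0534 and 0.0565). TAP1 (log2 fold change 0.06, adjusted p 0.170) and TAPBP (0.04, adjusted p 0.262) did not pass, but did with total counts, at 0.15 and 0.13, and with upper-quartile factors, at 0.11 and 0.09, and TAP1 also without A101D replicate 8 (0.10, adjusted p 0.0396). HLA-E (-0.05, adjusted p 0.173) and NLRC5 (-0.07, adjusted p 0.348) did not pass, and each changed sign under at least 1 scaling.

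In the rest of the A101D pathway, PSMB9 fell together with other proteasome genes. Of the 5 immunoproteasome and activator genes 4 fell and 1 (PSMB10) did not pass: PSMB8 fell by 0.59, PSME2 by 0.58 and PSME1 by 0.15 on the log2 scale. The PSME1 call was lost with total counts (adjusted p 0.158) and without A101D replicate 5 (0.0735). The constitutive counterparts fell too, PSMB7 by 0.70, PSMB6 by 0.52 and PSMB5 by 0.31. Within libraries, PSMB9 to PSMB6 was 0.0620 ± 0.000774 in replicates 1-4 and 0.0583 ± 0.00620 in replicates 5-8, which did not pass (exact permutation test, two-sided, p 0.2, adjusted p 0.24, where 4 against 4 cannot go below 0.0286). Without A101D replicate 5 it did pass (log2 difference -0.14, exact permutation adjusted p 0.0381). PSMB8 to PSMB5 was lower in replicates 5-8 (0.105 ± 0.00319 against 0.128 ± 0.00494) and PSMB10 to PSMB7 higher (0.0593 ± 0.00319 against 0.0400 ± 0.00322), each at exact permutation p 0.0286 and adjusted p 0.0429, with no overlap.

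In the regulators of A101D replicates 5-8, the 13 promoter factors, NLRC5 included, split into 5 higher, 4 lower and 4 that did not pass. NFYA rose by 0.40 and RELA by 0.32, while NFYB fell by 0.39 and NFKB1 by 0.33. The NFYC rise was kept in 14 of 24 alternatives and the CREB1 fall in 22. IRF1 rose by 0.69 ± 0.07. In interferon gamma signalling, IFNGR1 rose by 0.58 ± 0.05, while JAK1 fell by 0.41. The other 3 interferon gamma signalling genes passed less firmly. IFNGR2 was lost with total counts and upper-quartile factors (adjusted p 0.290 and 0.0502), JAK2 and SOCS1 with limma-trend (0.0673 and 0.0736). Leaving out A101D replicate 1, 4, 6 or 7 also lost JAK2 (0.0631 to 0.109), and leaving out replicate 1, 2, 4, 6 or 7 lost SOCS1 (0.0611 to 0.157). HLA-G, a nonclassical heavy chain, rose by 1.78 ± 0.47 on 1 to 16 counts per A101D library. MR1 rose by 0.89 and MICB fell by 0.79, and in the loading complex TAPBPL rose by 0.55 and CALR fell by 0.39. Of the 37 other pathway genes 13 were higher, 16 lower and 8 did not pass. This balance depended on the scaling: over the list with the members, 17 higher and 17 lower became 23 and 12 with total counts and 21 and 14 with upper-quartile factors.

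In MeWo, fewer genes separated replicates 5-8 from 1-4. Of the 9 members 2 passed, HLA-E and HLA-B, both higher in replicates 5-8, where 13.8% of all genes passed, 6.3% as higher and 7.5% as lower. These genome-wide calls were 1359 higher and 1617 lower, a split that moved to 2041 and 1037 with total counts only and to 1054 and 1975 with median-of-ratios factors. HLA-E was 176.2, 184, 176.6 and 174.9 CPM in MeWo replicates 1-4 and 196.3, 187, 194.7 and 196.5 CPM in replicates 5-8, without overlap (log2 fold change 0.12 ± 0.03, limma adjusted p 0.00702). HLA-B was 30.1, 32.5, 32.6 and 31.0 CPM in replicates 1-4 and 34.8, 31.3, 36.1 and 36.9 CPM in replicates 5-8. These overlapped through replicate 6, and the log2 fold change of 0.14 ± 0.05 passed narrowly (adjusted p 0.0482). The HLA-B call was lost when any 1 library of either line except MeWo replicate 6 was left out (adjusted p 0.0612 to 0.267). The HLA-E call was lost without MeWo replicate 5, 7 or 8 (adjusted p 0.0638, 0.0599 and 0.0712), so none of the 9 members passed in MeWo without one of these.

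The other MeWo differences did not pass. PSMB9 was 0.687, 0.852, 0.824 and 0.716 CPM in MeWo replicates 1-4 and 0.868, 1.06, 1.06 and 1.26 CPM in replicates 5-8, on 24 to 27 and 27 to 49 counts. All of replicates 5-8 were above replicates 1-4, with a log2 fold change of 0.47 ± 0.21 (limma adjusted p 0.144, and 0.0137 with limma-trend). NLRC5 was likewise separate, at 18.7 to 19.1 CPM and 20.1 to 22.1 CPM (log2 fold change 0.14 ± 0.06, adjusted p 0.0957). Libraries did not overlap for 3 of 9 members in MeWo and for 16.7% of all genes, and for 4 of 9 members in A101D and 59.8% of all genes. HLA-C (0.02), B2M (0.05), TAP1 (-0.05), TAP2 (0.03) and TAPBP (0.02) had small log2 fold changes. Of the 37 other pathway genes 4 passed in MeWo: RFX5 rose by 0.25, HFE rose by 0.30, PSMB6 fell by 0.13 and PSMB5 fell by 0.09. The PSMB5 call was lost with total counts (adjusted p 0.139) and without MeWo replicate 2, 3, 6, 7 or 8 (0.0594 to 0.130). PSMB9 to PSMB6 was 0.00166 ± 0.000140 in MeWo replicates 1-4 and 0.00250 ± 0.000421 in replicates 5-8, higher by 0.58 on the log2 scale. The levels fix this separation, so it is given as a description. In replicates 5-8 all PSMB9 values were above and all PSMB6 values below those of replicates 1-4. PSMB8 to PSMB5 was 0.0451 ± 0.000383 and 0.0527 ± 0.00288 (exact permutation test, p 0.0286, adjusted p 0.0429). Without any 1 of MeWo replicates 1-4 the PSMB8 to PSMB5 call was lost, at log2 differences of 0.22 to 0.23 (exact permutation adjusted p 0.0762 to 0.0857).

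**Figure D4:**
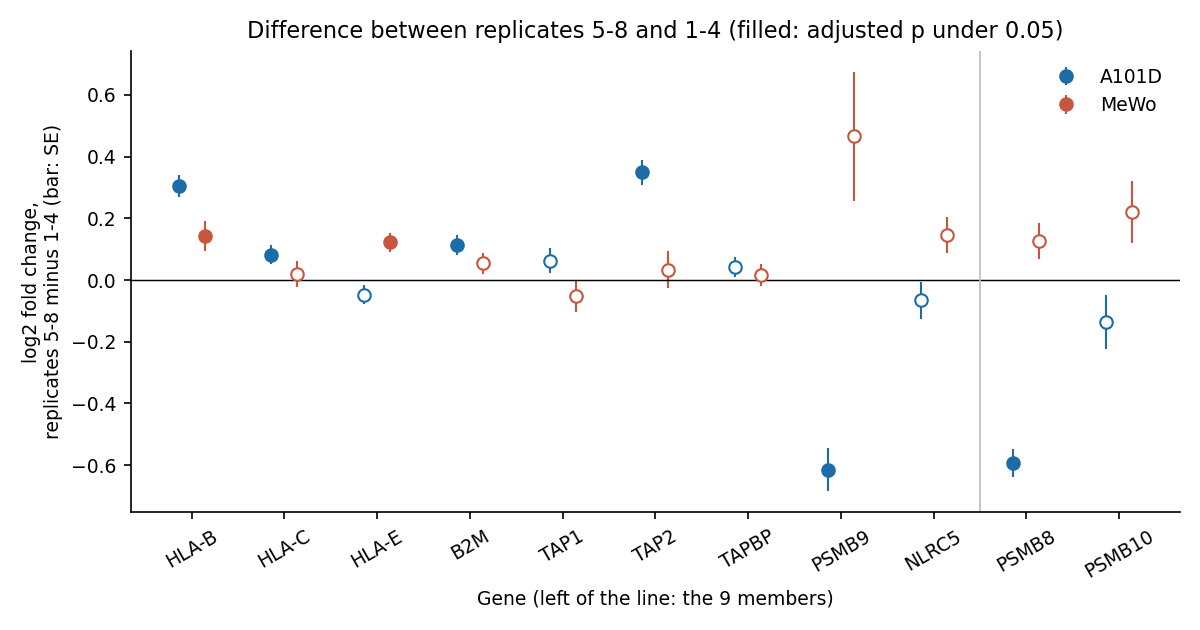
Log2 fold change of replicates 5-8 over 1-4 with its SE, in blue for A101D and red for MeWo, for the 9 members and, right of the grey line, PSMB8 and PSMB10. Filled points passed an adjusted p of 0.05. PSMB9 has -0.61 in A101D and 0.47 in MeWo, and HLA-B has 0.31 and 0.14.

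Whether the lines differed in this respect was tested as an interaction in the same limma model. Of the 9 members 5 passed, where 49.1% of all genes did (25.1% higher and 24% lower in MeWo). PSMB9 differed most, by 1.08 ± 0.22 on the log2 scale (MeWo minus A101D, adjusted p 7.26e-05), followed by TAP2 (-0.32 ± 0.07, adjusted p 0.000363). HLA-E (0.17 ± 0.04, adjusted p 0.00144), NLRC5 (0.21 ± 0.08, adjusted p 0.0354) and HLA-B (-0.16 ± 0.06, adjusted p 0.0237) also passed. NLRC5 did not pass under median-of-ratios, upper-quartile or total-count scaling (adjusted p 0.0794, 0.0957 and 0.119), and its call was kept in 6 of 23 alternatives, 4 of them leaving out A101D replicate 2 or 6 or MeWo replicate 3 or 4. The HLA-B interaction was lost without MeWo replicate 2, 3 or 6 (adjusted p 0.0644, 0.0694 and 0.0709). Without MeWo replicate 2, or without MeWo replicate 6, 3 of 9 members passed. For HLA-C, B2M, TAP1 and TAPBP the log2 interaction was -0.06, -0.06, -0.11 and -0.03, which did not pass. TAP1 passed without A101D replicate 8 (-0.16, adjusted p 0.0382), and TAP1 and B2M with total counts (-0.16 and -0.11).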

How the data were processed

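RNA libraries, 8 of A101D and 8 of MeWo, made with a stranded kit per the labels' protocols, were deposited as 1 table of whole-number counts per line. Each cell of the deposited tables joins an Ensembl identifier and its count, which were separated before use. The authors used Trimmomatic 0.39-1, STAR 2.7.1a, featureCounts 2.0.0 and GRCh38, per the submitters' processing notes. The annotation release, strand setting and treatment of multi-mapping reads were not given in the sources used here.

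Of 60676 identifiers, 60357 had a symbol in a gene name table and 58503 a position and exon length in GENCODE v29. TMM scaling (trimmed mean of M-values) used trims of 30% and 5% and gave factors of 0.96 to 1.05. Levels are TMM-scaled CPM (counts relative to library size). Genes with at least 0.298 CPM in 8 libraries (4 for the replicate groups) and 15 counts in all were tested. Tests used voom weights and robust variance moderation of limma 3.58.1 (R 4.3.3), with p-values adjusted after Benjamini and Hochberg over all genes, and a threshold of 0.05. The design held the line for 1 fit, and the line with the replicate group for the other. All 9 members passed the filters of both fits. Ratios were compared with exact permutation tests, two-sided, that went through every split of the libraries, with numpy 2.4.6. Like genes needed a mean of at least 10 CPM, and 0.5 CPM were added before logs. The limma step was run on simulated counts in which far fewer genes changed than were called here, as a check of the code only. All named pathway genes belong to 1 list ordered by role, from which some genes are not reported here. The members, the lists, the split into replicates 1-4 and 5-8 and the tests were chosen with earlier results of these data known. Within each line all 28 pairs of libraries differed by more than sampling noise (lowest chi-square 2.50 and 1.97 per degree of freedom), so none was counted as a repeat deposit.

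Alternatives were other scalings (median-of-ratios, upper-quartile, total counts), other filters (none, 1 CPM), a threshold of 0.01, limma-trend, the replicate number as a block, the replicate group as a factor, fits to 1 line only and leaving out each library.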

Additional observations from a re-analysis of the deposited data

Results flagged for a closer look

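Of 54 groups of 4 or 8 libraries checked over the 9 genes, 3 held a library set apart from the others of its group by more than Dixon's critical share of the range (0.829 for 4 libraries, 0.526 for 8). Chance gives about 1 in 20, or 2.7 of 54. HLA-E was 200.5 CPM in A101D replicate 5, against 214.3 to 220.9 CPM in the other 7 A101D libraries, a gap of 0.676 of the range. B2M was 498.1 CPM in MeWo replicate 6, against 475.3 to 475.8 CPM in the other libraries of replicates 5-8, a gap of 0.978 of the range. TAPBP was 157.7 CPM in A101D replicate 6, against 151.2 to 152 CPM in the other libraries of replicates 5-8, a gap of 0.877 of the range.

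For 5 members the difference between replicates 5-8 and 1-4 was itself different in the lines by the limma interaction: PSMB9 (1.08), NLRC5 (0.21), HLA-E (0.17), HLA-B (-0.16) and TAP2 (-0.32), as log2 values for MeWo minus A101D. PSMB9, NLRC5 and HLA-E had opposite signs in the lines, -0.61, -0.07 and -0.05 in A101D against 0.47, 0.14 and 0.12 in MeWo. Of these 6 values the PSMB9 one in A101D and the HLA-E one in MeWo passed, and the NLRC5 and HLA-E values in A101D were positive with total counts (0.018 and 0.036).

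The same interaction passed for 23 of the 37 other pathway genes. It was positive for CALR (0.36), PDIA3 (0.14), PSMB8 (0.72), PSMB10 (0.35), PSME1 (0.15), PSME2 (0.58), PSMB5 (0.21), PSMB6 (0.39), PSMB7 (0.62), RFX5 (0.24), RFXANK (0.32), NFYB (0.44), NFKB1 (0.29), JAK1 (0.34), MICB (0.62) and HFE (0.21). It was negative for HLA-G (-1.55), NFYA (-0.51), ATF1 (-0.17), IRF1 (-0.74), RELA (-0.31), IFNGR1 (-0.50) and MR1 (-0.71). Of all genes 49.1% passed. The call was kept in 6 of 23 alternatives for HFE and for PSME1, in 8 for PDIA3, in 12 for PSMB10, in 15 for ATF1 and in 14 of 22 for HLA-G, and in every alternative for the other 17 genes. HFE and ATF1 were among those lost without MeWo replicate 2 (adjusted p 0.0728 and 0.105). Over the list with the members, 19 higher and 9 lower became 14 and 15 with total counts or upper-quartile factors.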

How the results depend on the processing

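Line differences of the 9 members kept their direction under all 25 alternatives, which included leaving out each of the 16 libraries. B2M passed with the replicate block (adjusted p 0.0446) and with the replicate group as a factor. NLRC5 was lost at 0.01 and without the low-count filter. Each library left out in turn gave 15161 to 15467 genes and 8 of 9 members called. The replicate numbers were not taken to pair the samples. Deviations of same-numbered libraries from their line means correlated at 0.0882 to 0.255, with replicate 5 the lowest and under the 0.1 asked of every pair, and deviations from the means of line and replicate group at -0.066 to 0.204. By the first measure, 5 of 16 libraries correlated best with their own number. The replicate block called 15327 genes and 9 of 9 members.

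Differences within a line were less stable. In MeWo, 1622 genes passed at 0.01 against 2976. Of the members, 1 passed at 0.01, without the low-count filter, with median-of-ratios factors or with MeWo libraries only, 4 with total counts only, and 0 to 2 with a library left out. The interaction kept 3 members at 0.01 or without the low-count filter, and 3 to 5 with a library left out. Uncalled values that changed sign were HLA-E in A101D (0.0035 with upper-quartile factors, 0.036 with total counts), NLRC5 in A101D (0.018 with total counts), and HLA-C and TAPBP in MeWo (-0.00086 and -0.0047 with median-of-ratios factors, and -0.0094 to 0.051 and -0.018 to 0.026 with a library left out). The cause was not tested. Scaling shifted the median gene by up to 0.084 (A101D, total counts), slightly more than the HLA-C difference there (0.082).

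With a library left out, the ratio differences between replicate groups ran from 0.197 to 0.259 (PSMB8 to PSMB5, MeWo), 0.495 to 0.692 (PSMB9 to PSMB6, MeWo), -0.141 to -0.0191 (PSMB9 to PSMB6, A101D), 0.238 to 0.366 (PSMB10 to PSMB7, MeWo) and -0.0124 to 0.0579 (B2M to heavy chains, A101D). The MeWo call of PSMB8 to PSMB5 was lost without any 1 of MeWo replicates 1-4, and a call of PSMB10 to PSMB7 was gained without MeWo replicate 4. The PSMB9 counts of 24 to 49 per MeWo library limit its precision. The quasi-likelihood and negative binomial count tests planned as alternatives were not run, since deposited columns that join identifier and count in 1 cell did not pass the check of units as counts.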
